A study of Mus musculus with 24 samples.

Results

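Mouse embryonic stem cells (mESCs) hold a naive pluripotent state for as long as the culture medium tells them to, and the change measured here is the exit from that state over the first 2 days of differentiation. The 6 libraries compared, of 24 in the series, are RNA-seq of 3 Smchd1 wt lines at day 0, while still in medium with the cytokine LIF, and of the same 3 lines at day 2. They were chosen by their labels alone, with no measured value. The table held 35591 genes, of which 15521 had enough reads over the 6 libraries to be tested, and every gene was fitted together.

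The wt lines carry the genotype Smchd1[fl/+], a floxed allele with no deletion over an intact allele, and each came from a separate male blastocyst of a cross between a Castaneus mother and a C57BL/6 father in an MMTV-Cre colony. Each line therefore comes from 1 embryo and is an F1 hybrid, so the 3 replicates are 3 embryos. Day 0 cells grew on gelatin in serum medium with LIF after a period in 2i and LIF, which was diluted out in steps before differentiation. 2i is a pair of kinase inhibitors, PD0325901 against MEK in the ERK pathway and CHIR99021 against GSK3, which activates Wnt signalling. Day 2 cells had been washed out of that medium and kept in serum-free N2B27 with FGF2 on the way to neuromesodermal progenitors, and CHIR99021, which that protocol gives again later, had not yet been added back. The recent withdrawal of 2i, LIF removal, serum removal, the N2B27 supplements, the added FGF2, the seeding density and the time in culture changed together between the days and cannot be told apart. The 3 Smchd1[del/+] (het) lines, which lack the paternal Smchd1 copy, went through the same 2 days and served as a second set of samples.

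LIF acts through its receptor subunits LIFR and gp130 on the kinases JAK1 and JAK2, which activate the transcription factor STAT3. STAT3 in turn sustains factors such as Klf4, Tfcp2l1 and Nanog, while BMP from serum feeds the Id genes that block neural differentiation. FGF working through ERK pushes the other way, towards the formative epiblast state that precedes gastrulation. Exit from naive pluripotency is known for a rapid fall of the naive factors while Pou5f1 is still made.

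Libraries held 14445286 to 20615058 counts, and replicates of a day correlated at 0.985 to 0.993 across genes on the log scale against 0.953 to 0.965 between the days. The day 0 library of line 1 stood apart from its replicates: it detected 16821 genes against 18498 and 18586, and its structural RNAs were high, with Rmrp at 28.7 CPM (counts-per-million, on library sizes scaled by TMM) against 0.288 and 2.10 in lines 2 and 3 and the rRNA-like Gm26917 at 729.6 CPM against 84.97 and 139.0. Line 1 also read higher than the 5 other wt and het lines on chromosome 8, by a median of 0.167 on the log2 scale at day 0 and 0.202 at day 2, a shift shared by both of its libraries. Smchd1 itself read 128.9, 143.3 and 144.4 CPM on day 0 and 183.4, 212.1 and 191.8 CPM on day 2 in lines 1, 2 and 3, against means of 91.2 and 116.0 CPM in the het lines, the direction that the genotype labels give. It rose between the days (log2 fold change 0.50, edgeR adjusted p = 0.0014).

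A gene is said to have risen or fallen where edgeR's quasi-likelihood test gave a Benjamini-Hochberg adjusted p under 0.05 over all 15521 genes. By that rule 3475 genes (22.4% of those tested) rose and 3394 (21.9%) fell, and at an unadjusted p under 0.05 the sum was 7938. A stricter test, whether a gene changed by more than 2-fold, held for 590 genes higher on day 2 (3.8%) and 536 lower (3.45%). The count of members that rose or fell in any gene list stands against these shares. The median log2 fold change over all genes was 0.0237 with the TMM scaling, which itself centres the values, and 0.0682 with library totals alone. The 3 day 0 values and the 3 day 2 values did not overlap for 54.8% of all tested genes. Without the day 0 library of line 1 the counts were 3369 higher, 3277 lower and 1102 past 2-fold, and without both libraries of line 3 they were 1984, 2168 and 594.

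**Figure D1:**
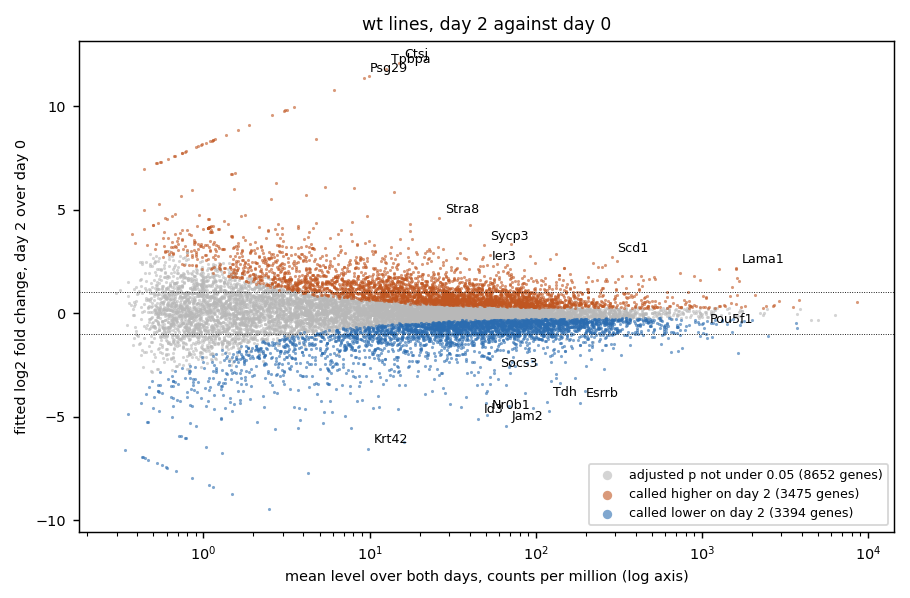
Each point is 1 of the 15521 tested genes, with its mean CPM over both days on a log axis and its fitted log2 fold change (day 2 over day 0, 3 lines a day) on the vertical axis. Orange genes rose, blue genes fell, grey genes had an adjusted p not under 0.05, and the dotted lines mark 2-fold. The slanted rows of points at the top and bottom left are genes with 0 counts on 1 of the days, whose fitted fold changes depend on the model and are not bounds.

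Most genes of the LIF pathway fell, Socs3, Bcl3 and Junb by more than the receptors. Of 14 genes on a list of the receptor, kinases, STAT3 and its targets, 12 were tested, and all of them were called: 4 rose and 8 fell, with 3 of the falls and 1 rise past 2-fold, where over all genes 22.4% rose, 21.9% fell and 3.8% and 3.45% did so past 2-fold. Without both libraries of line 3, 2 rose and 7 fell. The largest fall was that of Socs3, the feedback inhibitor that STAT3 switches on and the usual readout of LIF signalling. Socs3 (ENSMUSG00000053113, chr11:117966079-117970047, minus strand, GRCm38) read 109.7, 86.9 and 102.1 CPM in lines 1, 2 and 3 on day 0 and 12.96, 11.8 and 15.6 CPM on day 2. Every day 2 value lay below every day 0 value, a 7.40-fold fall (log2 fold change -2.89 ± 0.15 SE, edgeR adjusted p = 8.74e-09). Bcl3, a STAT3 target that acts as a transcriptional cofactor, fell from 10.3, 9.91 and 11.5 CPM to 2.27, 1.51 and 1.91 CPM, a log2 fold change of -2.47 ± 0.31. Junb fell by 1.84 on the log2 scale and Stat3 itself by 0.98, from 74.2 to 82.2 CPM on day 0 to between 29.1 and 51.9 CPM on day 2.

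Receptor components were lower by less than 2-fold. Il6st, which encodes gp130, fell by 0.61 on the log2 scale, and Lifr fell by 0.46 with an edgeR adjusted p of 0.0484, its day 2 values of 50.7 to 89.0 CPM overlapping the day 0 values of 78.2 to 108.7 CPM. Lifr was no longer called without the day 0 library of line 2 or 3 or the day 2 library of line 1 or 2 (edgeR adjusted p = 0.102 to 0.192). The kinase genes went the other way, Jak1 rising by 0.63 ± 0.11 and Jak2 by 0.86 ± 0.24, the latter not called without either library of line 3 (edgeR adjusted p = 0.0638 without day 0 and 0.0544 without day 2). Ier3, an immediate early gene with a role in cell survival, was the member that rose most, from 20.6, 13.8 and 16.2 CPM to 78.9, 69.8 and 104.8 CPM (log2 fold change 2.33 ± 0.19). Pim1, a STAT3-induced kinase, rose by 0.46, and its relative Pim3 fell by 0.56.

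The STAT-binding element TTCNNNGAA, which is its own reverse complement, was looked for in the 250 bases before the RefSeq transcription start of each list gene. It occurred in 2 of the 14 list genes, Socs3 and Fgl2, while 8.13% of 27025 genes with a promoter entry held it. The Socs3 stretch is shown because that gene carries the largest fall of the list. It lies at chr11:117969367-117969616 (GRCm38.p6, minus strand, RefSeq), it reads 5′ to 3′ towards the start, and the capitals mark the match, whose first base is 154 bases before the start.
Socs3: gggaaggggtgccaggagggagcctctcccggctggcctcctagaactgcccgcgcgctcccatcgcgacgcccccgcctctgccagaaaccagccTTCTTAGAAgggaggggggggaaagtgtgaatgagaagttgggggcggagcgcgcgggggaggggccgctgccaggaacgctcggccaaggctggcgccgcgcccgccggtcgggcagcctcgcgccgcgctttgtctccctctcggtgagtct
The match is a description of the letters in this window and not evidence of binding.

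Among targets of other signals some falls were larger than any in the LIF list. Id1, Id2 and Id3, inhibitors of neural basic helix-loop-helix factors and the main BMP targets of mESCs, were among the largest falls in the data. Id3 (chr4:136143497-136145755) read 115.3, 65.9 and 81.9 CPM in lines 1, 2 and 3 on day 0 and 1.499, 3.54 and 2.64 CPM on day 2, and Id1 read 188.5, 96.6 and 111.4 CPM against 5.42, 5.16 and 7.14 CPM. Neither gene had overlapping days, and the falls were 34.3-fold for Id3 and 22.3-fold for Id1. Id2 fell 10.6-fold, while Id4 had a log2 fold change of -1.41 ± 0.69 that missed the threshold (edgeR adjusted p = 0.115). Over the whole BMP and TGF-beta target list, 5 of 12 tested genes fell (21.9% over all genes) and 2 rose (22.4%), among the latter Ltbp1 (1.03), which binds latent TGF-beta in the matrix. Smad7, an inhibitory SMAD under the control of both branches, fell by 2.00 on the log2 scale, with all 3 day 0 values between 34.5 and 36.5 CPM and all 3 day 2 values between 8.07 and 10.6 CPM.

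Nodal signalling genes fell at the level of the ligand, its co-receptor and its feedback inhibitors. Of 9 genes of the list tested, 4 fell, all past 2-fold, and 2 rose, with a median log2 fold change of -0.06. Over all genes 21.9% fell, 3.45% past 2-fold, and 22.4% rose. Nodal read 56.4, 51.6 and 59.6 CPM on day 0 and 11.9, 15.7 and 13.3 CPM on day 2 (log2 fold change -2.03 ± 0.16). Lefty1 and Lefty2, secreted inhibitors of Nodal, fell by 2.31 and 2.18 on the log2 scale, and line 2 kept more of both than the others, 18.97 CPM of Lefty1 against 3.19 and 6.21 CPM and 21.7 CPM of Lefty2 against 5.90 and 5.97 CPM. Tdgf1, the co-receptor, fell 2.79-fold. The receptor gene Acvr1b rose by 0.63 (edgeR adjusted p = 0.0506 without both libraries of line 2). Acvr2a, Acvr2b and Foxh1, the receptors and the partner of SMAD2 needed to answer the ligand, had log2 fold changes of 0.09, 0.35 and -0.06 and did not pass the test.

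FGF2 had been added, and of 14 feedback inhibitors and ETS factors of the FGF and ERK pathway, all tested, 5 rose and 4 fell, none past 2-fold, beside 22.4% rising and 21.9% falling among all genes. Without the day 0 library of line 3, 3 rose. The rises were in the phosphatases of ERK and its relatives, Dusp4 (0.51), Dusp5 (0.61) and Dusp6 (0.97), and in the inhibitors Spred1 (1.16) and Il17rd (0.87). Without the day 0 library of line 3, Dusp4 and Dusp5 missed the threshold (edgeR adjusted p = 0.0526 and 0.097), as Dusp5 did without the day 2 library of line 1 (0.0611). Spry2 and Spry4, inhibitors of the same pathway, fell by 0.84 and 0.96, and the ETS factor Etv5 fell by 1.21 from 274.2 to 294.6 CPM on day 0 to 119.7 to 132.5 CPM on day 2. Dusp6 and Etv5 thus moved in opposite directions with no overlap between the days for either gene. In the immediate early and serum response list 3 of 14 tested genes rose and 2 fell, beside 22.4% and 21.9% of all genes, with Ier3 and Ankrd1 rising and Junb falling past 2-fold. The list's count was 5 rising without the day 2 library of line 1, and 1 falling without the day 0 library of line 1 or the day 2 library of line 2 or 3. Fos, Egr1, Jun and Srf all missed the threshold, whereas Ankrd1, a target of YAP and SRF, rose from 0, 4.09 and 4.27 CPM to 29.4, 18.3 and 51.7 CPM (edgeR adjusted p = 0.000425, 0.0541 by DESeq2).

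**Figure D2:**
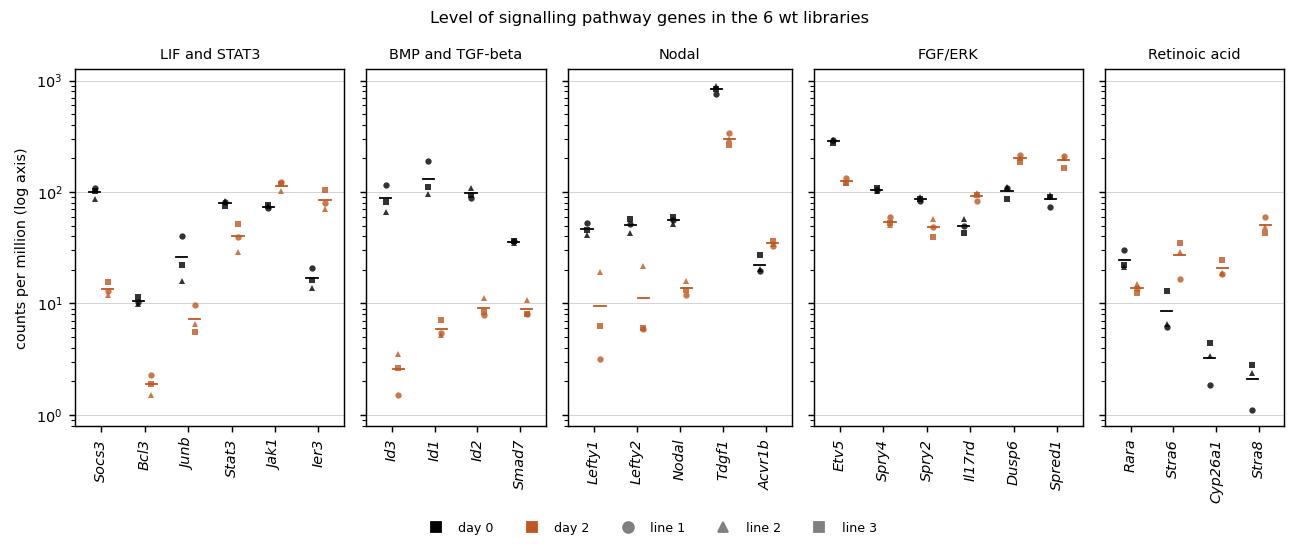
CPM (log axis) of genes from 5 signalling pathways in the 6 wt libraries, black for day 0 and orange for day 2, with a circle, triangle and square for lines 1, 2 and 3 and a bar at the mean of 3. The genes drawn were picked for display from the lists. Socs3, the Id genes and Nodal sit lower on day 2 in every line, and Dusp6, Spred1, Stra8 and Cyp26a1 sit higher.

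Retinoic acid pathway genes rose in 6 of 11 cases tested, beside 22.4% of all genes. Stra8, named for its induction by retinoic acid and needed for meiotic entry, read 1.11, 2.36 and 2.80 CPM on day 0 and 59.6, 48.8 and 43.1 CPM on day 2, a 24.3-fold rise (SE 0.27 on the log2 scale, edgeR adjusted p = 2.22e-08). Cyp26a1, the enzyme that breaks retinoic acid down, rose 6.43-fold, and Stra6, a retinol transporter, rose by 1.67 on the log2 scale. Rarb, a receptor that retinoic acid induces, rose from a low level, 0, 0 and 0.420 CPM to 2.37, 2.35 and 1.47 CPM. It shares 32.1% of its transcript 75-base stretches with other genes' transcripts. In this list 2 genes fell (1 with the line as a block), near the 21.9% over all genes, among them the receptor Rara by 0.84 on the log2 scale. Without both libraries of line 2 or of line 3, 4 genes of the list rose, and Rarb was not called without line 2 (edgeR adjusted p = 0.0884). Aldh1a2, the enzyme that makes retinoic acid in the embryo, stayed between 0.440 and 2.80 CPM and did not pass the test. Rdh11, a retinal reductase outside the list and among the 5 rises with the smallest adjusted p, went from between 68.6 and 69.6 CPM to a mean of 253.7 CPM, at most 257.8 CPM.

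Wnt target genes moved both ways. Nkd1 and Nkd2, feedback inhibitors, rose by 2.36 and 2.00 on the log2 scale, Rnf43 by 3.08 from 0.369 CPM or less, and the transcription factor Tcf7 by 1.19. Notum, which inactivates Wnt ligands, fell 11.7-fold from 7.56, 8.35 and 8.12 CPM to 0.871, 0.469 and 0.685 CPM, Dkk1 fell by 2.11 (edgeR adjusted p = 0.0704 without the day 0 library of line 3), and Ccnd1 by 0.89. Axin2, the usual readout of the pathway, had a log2 fold change of -0.30 ± 0.29 and did not pass the test.

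All 16 naive pluripotency factors fell, 14 of them past 2-fold, beside 21.9% and 3.45% of all genes. Their median log2 fold change was -2.71 beside 0.02 over all genes tested. Esrrb, an orphan nuclear receptor that can stand in for Nanog in self-renewal, had the smallest adjusted p of the list. Esrrb (ENSMUSG00000021255, chr12:86361117-86521628) read 362.1, 353.2 and 344.5 CPM on day 0 and 19.4, 13.9 and 19.1 CPM on day 2. The days were far apart in every line, a 20.2-fold fall (log2 fold change -4.34 ± 0.14, edgeR adjusted p = 1.03e-10). Nr0b1, a corepressor, fell 29.9-fold from 119.4, 83.2 and 92.4 CPM to 3.29, 3.70 and 2.89 CPM, and Klf4, a direct STAT3 target, 16.7-fold from 81.2, 66.6 and 69.1 CPM to 3.97, 3.804 and 5.18 CPM.

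The smaller falls within the list differed in size from these. Nanog kept more of its transcript, 57.0, 43.8 and 73.4 CPM of 326.8, 381.8 and 321.7 CPM, and Tfcp2l1 fell 5.61-fold. Klf5 fell 2.36-fold, and Fgf4, the FGF ligand that mESCs make for themselves, 1.57-fold. These last 2 genes were the ones that did not pass the 2-fold test. Tcl1, an AKT coactivator, fell 18.5-fold, with line 3 keeping 2.15 CPM on day 2 against 0.387 and 0.208 CPM in lines 1 and 2.

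The core pluripotency factors were reduced and not lost. Of 9 tested, 8 fell, 3 of them past 2-fold, beside 21.9% and 3.45% of all genes, with a median of -0.90. Pou5f1, which encodes OCT4, read 1395, 1152 and 1314 CPM on day 0 and 921.7, 707.2 and 724.2 CPM on day 2, a 1.64-fold fall with no overlap. Sox2 fell further, 3.503-fold, from between 201.1 and 273.3 CPM to between 45.4 and 83.6 CPM. Lin28a, an RNA-binding regulator of let-7, was the exception at 0.23 ± 0.09 on the log2 scale (edgeR adjusted p = 0.0528, and 0.0496 with the line as a block).

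The formative and primed list gave no uniform rise. Of 18 tested, 10 rose and 4 fell, none of the rises past 2-fold, with a median of 0.30, beside 22.4% rising and 21.9% falling over all genes. Without the day 0 library of line 3, 6 rose. Fgf5, the classical mark of the epiblast-like state, read 9.16, 11.98 and 10.5 CPM on day 0 and 6.82, 14.5 and 10.5 CPM on day 2. The days overlapped fully, and the 95% limits implied by a log2 fold change of 0.01 ± 0.28 span 0. Otx2 was likewise inside the spread at 0.13 ± 0.16. Pou3f1, the third marker of epiblast-like cells, rose by 0.51, and the de novo methyltransferase Dnmt3b, the fourth, by 0.29. The rises above 1 on the log2 scale were SOX or SALL factors: Sox3 (1.49), Sall2 (1.25), Sox11 (1.20) and Sox4 (1.06), the last sharing 53.8% of its transcript 75-base stretches with other genes' transcripts. Foxd3, a forkhead factor of early epiblast and neural crest, fell 8.26-fold, from 22.9, 13.5 and 14.8 CPM to 0.822, 4.48 and 0.929 CPM, and Grhl2 fell by 1.26. At day 0 the markers chosen here for undifferentiated cells were present (Nanog, Zfp42, Klf4, Esrrb and Tfcp2l1, each at 66.6 CPM or more). Of the 4 markers chosen for epiblast-like cells only Pou3f1 and Dnmt3b were above their day 0 level on day 2 by the test. Both calls were lost in some fits without 1 library, with the change still upwards. Pou3f1 was not called without the day 0 library of line 2 or 3 or the day 2 library of line 2. Its log2 fold changes there were 0.455, 0.428 and 0.344 (edgeR adjusted p = 0.0593, 0.0948 and 0.105). Dnmt3b was not called without the day 0 library of line 3 (0.248, edgeR adjusted p = 0.0921).

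**Figure D3:**
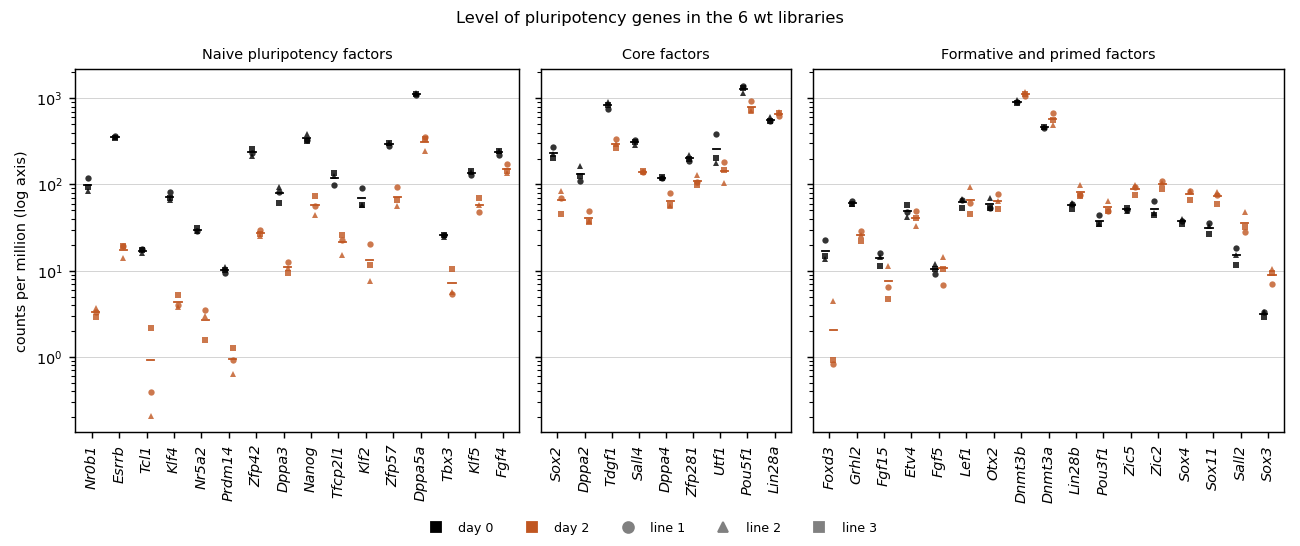
CPM (log axis) of genes of the naive, core and formative lists in the 6 wt libraries, ordered by fold change within each panel. Black marks day 0, orange day 2, symbols mark the lines and bars the mean of 3. The naive panel separates in all 16 genes, the core panel by less, and in the formative panel Fgf5, Otx2, Lef1 and Etv4 overlap between the days.

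Primitive streak genes were scarce on both days. Of 14 primitive streak and mesoderm markers only 6 were tested and 1 was called, Wnt3a, which fell from 1.21 CPM or less and was not called without any 1 of 4 libraries (edgeR adjusted p = 0.0924 to 0.124). The list's count moved when 1 library was left out, to 3 falling without the day 0 library of line 1, to none without that of line 2, and to none falling and 1 rising without the day 0 library of line 3 or the day 2 library of line 1. T (Brachyury) read 0.369, 4.32 and 2.80 CPM on day 0 and 0.290, 1.04 and 0 CPM on day 2 (edgeR adjusted p = 0.0744, 0.0172 without the day 0 library of line 1 and 0.0299 without the day 2 library of line 2), and it was called lower by DESeq2 (adjusted p = 0.0309), in the fit of all 24 libraries (edgeR, 0.00745) and without the count filter (edgeR, 0.0073). Among neural markers 4 of 8 tested rose and 2 fell, beside 22.4% and 21.9% of all genes, and without both libraries of line 2 these counts were 2 and 1. Sox1, the earliest neural plate factor, rose from 2.15, 2.02 and 0.350 CPM to 8.90, 15.5 and 10.95 CPM, a 7.69-fold change, and Pax6 rose by 1.53, but Tubb3 fell by 1.33 and Hesx1 by 2.23. Without the day 2 library of line 1 the change of Pax6 was 0.94 and did not pass the test (edgeR adjusted p = 0.071), and without the day 0 library of line 2 Hesx1 did not (0.0558). Of 27 Hox genes of groups 1 to 9, which set position along the body axis, 8 were tested and 4 rose. A Hox gene silent on day 0 could pass the count filter only through day 2, so this count describes and does not test. It was 7 of 10 without the day 0 library of line 2 or of line 3, 6 of 10 without that of line 1, and 6 of 8 by DESeq2. Hoxb1 read at most 0.350 CPM on day 0 and 2.01 to 2.76 CPM on day 2, and Hoxa3 and Hoxa5 had 0 counts in all 3 day 0 libraries and 1.42 to 2.92 and 0.831 to 4.06 CPM on day 2. Summed over the 27 genes, Hox levels were 3.92 to 5.01 CPM on day 0 and 28.3 to 39.1 CPM on day 2.

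The germline list holds genes kept silent by DNA methylation. Sycp3, a component of the synaptonemal complex, read 8.67, 9.16 and 9.38 CPM on day 0 and 103.0, 61.8 and 102.3 CPM on day 2, a 9.81-fold rise. Mael and Taf7l rose by 1.60 and 1.27 on the log2 scale, while Rpl10l, a ribosomal protein copy used in the testis, fell 4.21-fold and Dazl fell by 0.58, a call lost without any 1 of 4 libraries (edgeR adjusted p = 0.0703 to 0.116). In all, 4 of 15 rose and 4 fell, near the shares over all genes (22.4% and 21.9%), and 2 fell without the day 0 library of line 2 or 3 or the day 2 library of line 3. Sycp3 shares 38.4% of its transcript 75-base stretches with other genes' transcripts. Of the enzymes that write and remove the methyl mark, Dnmt3l, a cofactor of the de novo enzymes, fell 3.67-fold, from 934.0, 1041 and 1111 CPM to 334.0, 233.6 and 274.0 CPM. Dnmt1 and its partner Uhrf1 fell by 0.63 and 0.46, Tet1 and Tet2 by 0.99 and 1.08, and Dnmt3a and Dnmt3b rose by 0.31 and 0.29, the former with an edgeR adjusted p of 0.062 to 0.176 without any 1 of 5 libraries and the latter of 0.0921 without the day 0 library of line 3.

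Cholesterol synthesis genes rose along most of the pathway. Of 25 genes of cholesterol synthesis and uptake, all tested, 22 rose and 1 fell, beside 22.4% and 21.9% of all genes. Of the rises 13 were past 2-fold (3.8% over all genes), and the median log2 fold change was 1.41. These genes are controlled by SREBP2, a transcription factor released from the endoplasmic reticulum when sterol is short. Among the largest rises were Stard4, a sterol carrier (5.38-fold, from 19.6, 37.6 and 35.6 CPM to 167.6, 156.8 and 175.2 CPM), Msmo1, a sterol methyl oxidase (4.62-fold), and Insig1, which holds SREBP back (4.47-fold). Neither Stard4, Msmo1 nor Insig1 had overlapping days. Srebf2, which encodes SREBP2, rose 2.22-fold.

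Not all of the list rose. Ebp, a sterol isomerase on the X chromosome, fell 2.42-fold, from 48.0, 41.8 and 31.1 CPM to 15.04, 17.3 and 17.7 CPM, and Idi1, an isomerase early in the pathway, had a log2 fold change of 0.10 ± 0.16 and did not pass the test. Leaving out the day 0 library of line 1, or both libraries of any 1 line, left 21 or 22 genes rising and 1 falling in this list.

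The sterol regulatory element TCACNCCAC was looked for on both strands in the 250 bases before the start of the cholesterol genes. RefSeq promoter entries matched 17 of the 25 by symbol, and 1 of these, Hmgcs1, held the element, against 1.22% of 27025 genes. Hmgcs1 encodes a synthase early in the pathway and rose 3.02-fold, from 187.6, 246.3 and 231.2 CPM to 672.9, 657.2 and 676.9 CPM. Its stretch is shown with the element in capitals, starting 137 bases before the start, at chr13:119690101-119690350 (GRCm38.p6, plus strand, RefSeq), 5′ to 3′.
Hmgcs1: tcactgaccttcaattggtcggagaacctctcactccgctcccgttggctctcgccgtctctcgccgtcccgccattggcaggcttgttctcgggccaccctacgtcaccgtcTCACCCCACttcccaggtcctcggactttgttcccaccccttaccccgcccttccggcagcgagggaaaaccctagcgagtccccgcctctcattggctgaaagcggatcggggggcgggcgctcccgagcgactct
The entries of the other 16 genes did not hold these letters in this window.

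Fatty acid synthesis genes rose in 9 of 12 cases, 5 past 2-fold, and 1 fell. Over all genes 22.4% rose, 3.8% past 2-fold, and 21.9% fell. Scd1, which puts the first double bond into saturated fatty acids, read 81.7, 74.8 and 75.2 CPM on day 0 and 493.6, 481.9 and 519.3 CPM on day 2, the rise with the smallest adjusted p in the data (6.45-fold, log2 fold change 2.69 ± 0.10, edgeR adjusted p = 2.73e-10). Scd2 rose 3.52-fold, the desaturases Fads1 and Fads2 3.55-fold and 2.85-fold, and Me1, which supplies NADPH, 4.47-fold. The elongase Elovl5 rose 1.73-fold, and Acly and Acss2, which supply acetyl-CoA, 1.69-fold and 2.03-fold. Fasn, the fatty acid synthase, fell by 0.27 on the log2 scale (edgeR adjusted p = 0.0435, 0.0577 with the line as a block and 0.094 to 0.15 without any 1 of 4 libraries) with overlapping days. Acaca and Elovl6 did not pass the test at 0.27 and 0.11, though Acaca did with library totals alone (edgeR adjusted p = 0.0424).

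**Figure D4:**
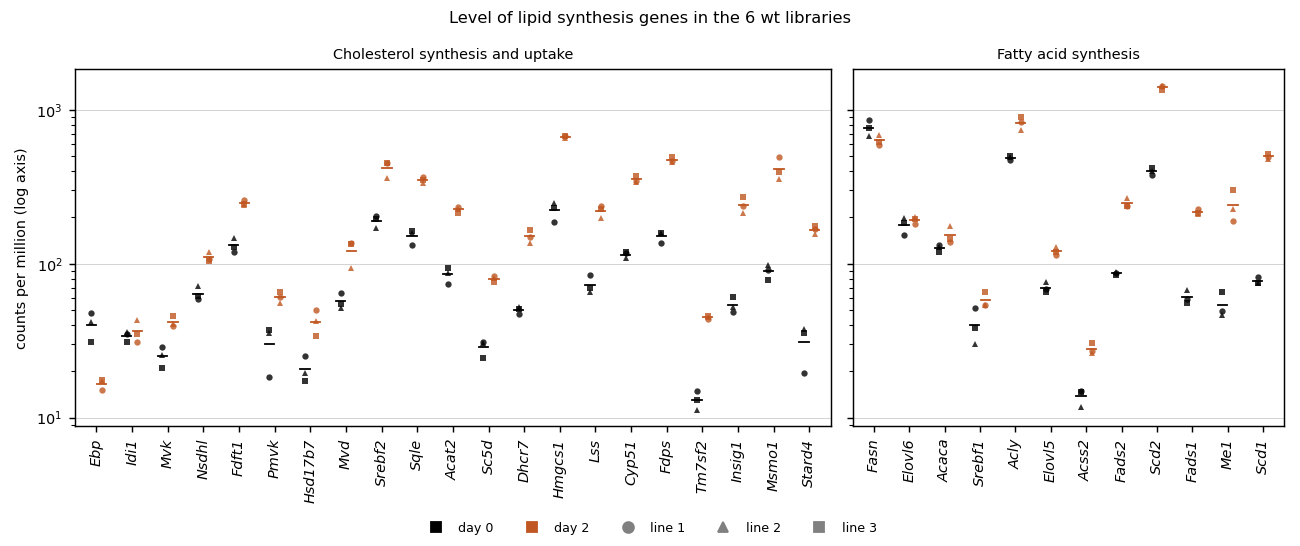
CPM (log axis) of cholesterol and fatty acid list genes in the 6 wt libraries, ordered by fold change, black for day 0 and orange for day 2, with 1 symbol a line and a bar at the mean of 3. Of the genes drawn, all but Ebp and Idi1 on the left and Fasn, Elovl6 and Acaca on the right rose by the test.

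Glucose uptake and glycolysis genes rose in 11 of 18 cases and 1 fell, beside 22.4% and 21.9% of all genes, with a median of 0.48. The 2 rises past 2-fold were the neuronal-type glucose transporter Slc2a3 (2.94-fold, from 798.1, 863.6 and 876.8 CPM to 2603, 2116 and 2754 CPM) and Pgk1 (2.39-fold). The platelet phosphofructokinase Pfkp fell 1.83-fold while Pfkl and Pfkm rose 1.69-fold and 2.45-fold. Pgk1 shares 52.8% of its transcript 75-base stretches with other genes' transcripts, so its level is uncertain, as is that of Phgdh (35.8%). Tdh, the threonine dehydrogenase on which mESCs are known to depend, fell 19.4-fold from 223.9, 217.1 and 231.4 CPM to 10.3, 10.4 and 13.9 CPM, while its partner Gcat rose 2.18-fold. Phgdh, Psat1 and Psph, the 3 steps of serine synthesis, rose 1.53-fold, 1.45-fold and 2.35-fold. Antioxidant genes fell in 7 of 11 cases (21.9% over all genes) and 1 rose, none without the day 0 library of line 3. Among the falls were the metallothioneins Mt1 and Mt2 (2.22-fold and 2.19-fold) and the quinone reductase Nqo1 (2.86-fold).

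Stress response genes did not move together. Ddit4, an inhibitor of mTORC1, rose 3.43-fold and Ddit3, which encodes CHOP, 3.94-fold, but Atf4 and its target Trib3 had log2 fold changes of -0.23 ± 0.15 and -0.01 ± 0.26 and Sesn2 fell by 0.74 (edgeR adjusted p = 0.0183, and 0.0773 to 0.0962 without any 1 of 3 libraries). Line 2 read higher than the other lines on day 2 for several of these genes, such as Trib3 at 111.1 CPM against 55.6 and 42.2 CPM and Chac1 at 50.6 CPM against 20.4 and 16.0 CPM. Without that day 2 library of line 2 both Atf4 and Trib3 were called lower, at -0.48 and -0.53 on the log2 scale (edgeR adjusted p = 0.00225 and 0.0201), and the 13 genes of the list went from 6 rising and 2 falling to 5 and 4, their median from 0.27 to -0.10. Of 12 p53 targets 2 rose (1 without any 1 of 4 libraries) and 4 fell, beside 22.4% and 21.9% of all genes, and Cdkn1a was at 0.01 ± 0.15. Of 13 G1 cyclins, their kinases and inhibitors 2 rose and 7 fell, beside 22.4% and 21.9% of all genes. Without both libraries of line 3, 4 fell. Ccnd2 rose 6.13-fold, from 9.77, 12.4 and 18.1 CPM to 58.4, 93.4 and 94.5 CPM, and the inhibitor Cdkn1b 3.53-fold, while Ccne1 fell 3.48-fold, Ccnd3 2.89-fold and Ccnd1 1.86-fold.

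Basement membrane and endoderm genes rose in all lines from different starting levels. Of 20 markers of primitive and extraembryonic endoderm 17 were tested, 12 rose and none fell, with 7 past 2-fold and a median of 1.38. Over all genes 22.4% rose, 3.8% past 2-fold, and 21.9% fell. Lama1, a laminin chain, read 401.9, 486.3 and 850.9 CPM in lines 1, 2 and 3 on day 0 and 1504, 2651 and 3728 CPM on day 2, so that line 3 was highest and line 1 lowest on both days. Its per-line log2 changes were 1.90, 2.44 and 2.13. Lamb1, Col4a1 and Col4a2, which build the same matrix, rose by 2.15, 2.11 and 1.94, and Sparc by 1.58. Among genes that mark the cell type more than its matrix, Gata6 rose by 1.48, Gata4 by 1.14, Dab2 by 1.60 and the endocytic receptor Cubn by 1.80. Sox17 and Foxa2 did not pass the test (with the line as a block both did, at edgeR adjusted p = 0.0278 and 0.0104, as they did without the day 0 library of line 3 or the day 2 library of line 1, at 0.0203 to 0.0324), and the late marker Afp had 1 count at most in any wt library. The 20 markers summed to 2518, 2644 and 4125 CPM in lines 1, 2 and 3 on day 0 and to 7731, 11130 and 15800 CPM on day 2, and without the 5 basement membrane genes to 537.8 to 813.7 and 1098 to 2028 CPM. In bulk RNA, more cells of a type and more RNA per cell cannot be told apart.

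A set of genes of the placenta went from silence to a measurable level. By the size of the fitted change the 12 largest rises, among genes whose mean count reached 50 on either day, were Ctsj, Tpbpa, Prl2b1, Psg29, Pappa2, 1600012P17Rik, Prl7d1, Prl2c5, Ceacam15, Ctsr, Cts7 and Prl6a1, and each had 0 counts in all 3 day 0 libraries. Tpbpa is the classical marker of spongiotrophoblast, the Prl genes are placental relatives of prolactin, the Psg and Ceacam genes encode pregnancy-specific and related glycoproteins, and the Cts genes here are placental cathepsins. Ctsj (chr13:61000179-61005959) had 699, 595 and 525 counts in lines 1, 2 and 3 on day 2, and Tpbpa (chr13:60938492-60941984) had 488, 634 and 377. Taking 3 counts over the day 0 libraries as the floor, Ctsj was at least 482-fold higher on day 2, Tpbpa at least 397-fold and Prl6a1, the lowest of the 12, at least 51.4-fold.

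The families were then counted as wholes, a step chosen after these values were seen. Of 25 Prl genes 8 were tested and all 8 rose, of 8 placental cathepsins 5 of 5, of 13 Psg genes 2 of 2 and of 15 Ceacam genes 2 of 3. A gene silent on day 0 can pass the count filter only by being present on day 2, so these counts describe and do not test. All 35 tested genes with 0 counts on day 0 rose, of whatever family. Over the 19 placental genes, picked because they rose, 15 counts were seen on day 0 and 10145 on day 2. Of the 12 trophoblast markers listed, Tpbpa and Krt18 (by 0.32) rose, and Ascl2, Hand1, Krt7 and Elf5 fell. Leaving out 1 library took Krt18 (without any 1 of 4), Elf5 (any 1 of 3) and Krt7 (the day 0 library of line 2) out of the called genes, at edgeR adjusted p values of 0.0575 to 0.211. Cdx2 and Gata3, which define trophoblast stem cells and their descendants, read 1.27 to 1.62 and 2.15 to 4.64 CPM on day 2 and did not pass the test. Prl2c5 shares 19.6% of its transcript 75-base stretches with other genes, so its reads may come from another Prl2c copy.

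**Figure D5:**
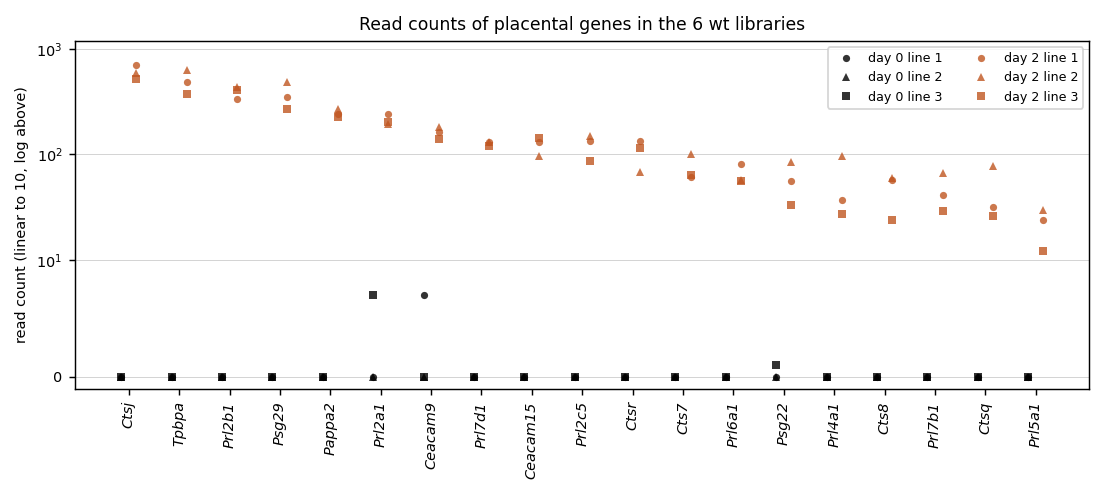
Read counts of 19 placental genes in the 6 wt libraries, on an axis that is linear up to 10 and logarithmic above. Black symbols are day 0 (0 counts for 16 of the 19 genes in all 3 lines), orange symbols day 2, which range from 12 to 699 counts, and each symbol shape is a line.

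Large falls outside the lists included cell surface, keratin and non-coding genes. Jam2, a junctional adhesion molecule, fell 43.5-fold, from 123.2, 127.3 and 140.7 CPM to 2.76, 3.54 and 2.69 CPM, and Ifitm1, an interferon-inducible membrane protein, had the smallest adjusted p of all genes (26.8-fold, 4.34e-11 by edgeR with Benjamini-Hochberg adjustment). Spp1, which encodes osteopontin, fell 13.4-fold. Krt42 and Krt17 fell 93.9-fold and 47.4-fold, Msc, a repressor of muscle genes, fell from 11.6, 7.49 and 6.37 CPM to 0, 0.104 and 0 CPM, and the lysyl oxidase relative Loxl4 fell 36.0-fold. Ubd, an interferon-inducible ubiquitin-like protein, fell 46.7-fold. The lincRNA 9630028I04Rik, with 72, 99 and 67 counts on day 0, had none on day 2 and was at least 99.9-fold lower, and Gm47725, Gm46332 and the miR-124 host transcript Mir124a-1hg fell 75.04-fold, 40.1-fold and 49.1-fold.

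Among symbol families with at least 10 tested genes, those with the highest share rising were Pcdha (12 of 12), Pcdhga (12 of 12), Man (6 of 10), Lrp (7 of 12) and Tspan (10 of 19). Over all genes 22.4% rose. The Pcdha genes share their last exons, and most members carried the same reads, with a mean near 0.117 CPM on day 0 and 2.03 CPM on day 2 for Pcdha1, Pcdha2 and Pcdha5 alike, so the 12 do not count as 12 measurements. The Pcdhga genes have the same structure, and their 12 means were alike too, such as 21.9 and 36.7 CPM for Pcdhga2 and 21.9 and 35.6 CPM for Pcdhga4 on days 0 and 2. The families with the highest share falling were Exosc, Mcm, Psmb and Utp (7 of 10 each) and Ddx (25 of 37), beside 21.9% of all genes. These families serve RNA decay, DNA replication licensing, the proteasome, ribosome assembly and RNA unwinding. Mitochondrially encoded genes fell in 8 of 12 cases (21.9% over all genes) with a median of -0.60. The share of reads from the mitochondrial genome was 0.63 to 0.756% on day 0 and 0.364 to 0.567% on day 2. Of the mitochondrially encoded genes, mt-Co2, mt-Co3, mt-Atp6, mt-Nd3 and mt-Nd4l share 97.8 to 99.9% of their 75-base stretches with other annotated transcripts, mt-Nd4 61.5% and mt-Co1 39.8%.

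The het lines changed in the same direction for most genes. Of 15303 genes tested in them 8582 (56.1%) were called, and of the 6771 genes called in wt and tested in het 6728 had the same direction, 6026 were called in that direction and 1 in the opposite. For the wt genes past 2-fold, 1095 of 1096 tested in het had the same direction and 1076 were called. Naive factors fell in all 16 cases in het too, with a median of -2.64, and the cholesterol list had a median of 1.35. The test of the difference itself, the genotype by day interaction over 16387 genes, called 0 genes (0%) by edgeR, with 1034 at an unadjusted p under 0.05. DESeq2 called 10, Ifitm1 and Pfkl among them. Of the 19 placental genes 13 were tested in het, and all 13 rose there, with the same limit of the count filter as in wt. On day 2 Ctsj read a mean of 13.7 CPM in het and 30.2 CPM in wt and Psg29 4.04 and 18.5 CPM, and the interaction did not pass the test for either gene.

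Later days of the same lines were scaled over all 24 libraries and not tested here. Mean Id3 was 11.5 and 8.04 CPM at days 2.5 and 3, above the day 2 values given earlier. Jam2 was at 2.40 and 3.26 CPM, Spp1 at 8.96 and 8.05 CPM, Rdh11 at 186.0 and 184.0 CPM, and Tpbpa at 37.9 and 58.0 CPM. Aldoa, at 2740 CPM on day 2 on that scale, was at 1630 and 1790 CPM, near its day 0 mean of 1510 CPM. The Wnt activator was present at these days, so they are not a longer run of the same condition.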

How the data were processed

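Per the study's methods and the submitters' processing notes, the authors trimmed reads with Trim Galore 0.4.4, aligned them with HISAT2 2.0.5 to GRCm38.p6 and counted reads per gene in SeqMonk, and they deposited these raw counts for 24 libraries, which were used as they stand. Libraries were poly(A) RNA prepared with a stranded or a non-stranded kit, which of them for each library not given in the sources used here, so reads of overlapping antisense genes may not be separable. The deposited log2 RPKM tables of chosen genes were not used.

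Genes were filtered by edgeR's filterByExpr and tested between the 3 wt day 2 and 3 wt day 0 libraries with edgeR 4.0.16 (R 4.3.3; TMM factors, quasi-likelihood F test, glmTreat for more than 2-fold), with Benjamini-Hochberg adjustment over all tested genes and a threshold of 0.05. CPM used TMM-scaled library sizes. Het lines were fitted in the same way, and the genotype by day interaction in 1 fit of the 12 libraries. DESeq2 1.42.0, other scalings and filters, a fit with all 24 libraries, thinned counts and left-out libraries were alternatives. Counting error alone underlies the floor of 3 counts over a day's libraries.

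The named genes are the 12 largest rises and falls past 2-fold, with no overlap and a mean of 50 counts or more on either day, the 5 smallest adjusted p each way, up to 4 called members a list with those that define it, 6 genes varying most between lines, Smchd1 and the 5 symbol families (10 or more genes) with the highest share each way. Some genes that these rules or lists name are not reported here. The members and lists were chosen with earlier results of these data known. Day 0 and day 2 libraries with the same number come from the same line per the labels, so numbers pair the samples. Same-line deviations correlated at 0.071, 0.067 and 0.077, other pairs at -0.098 to 0.032. Each line is 1 embryo, so p-values measure the spread between lines. The tests were tested on simulated data. These held few changed genes and no differences between lines, so they were simpler than the data here.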

Additional observations from a re-analysis of the deposited data

How the results depend on the processing

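The direction of every gene called in both settings was the same under each alternative run. With the line as a replicate block 6906 genes were called against 6869 without it, 1086 were past 2-fold against 1126, the het lines gave 8655 against 8582, and the genotype by day interaction gave 2 (Tfpi, log2 -0.72, and Ahnak, -0.90, each with an edgeR adjusted p of 0.0462) against 0. Among named genes Gm13061, Gm20512, Pdgfrb and Usp17lc lost their call under the block, and of the other list genes Fasn was among those that lost it and Lin28a, Sox17, Foxa2, Sycp1, Slc16a3 and Col3a1 gained one. DESeq2 called 10 interaction genes, among them Ifitm1 (het change minus wt change 0.87 on the log2 scale, DESeq2 adjusted p = 0.00632) and Pfkl (0.51, 0.0495). For these edgeR gave adjusted p = 0.288 and 0.457. Leaving out 1 library gave 0 to 1 interaction genes by edgeR (Zyg11a, without the wt day 2 library of line 3).

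Leaving out 1 library, or both libraries of 1 line (an alternative chosen after seeing the data), gave 4152 to 6646 called genes, 1984 to 3369 higher and 2168 to 3289 lower, and 594 to 1106 past 2-fold. The lowest of each was without both libraries of line 3, where 59.1% of the 6869 genes were still called. Without line 1 or line 2, where as many samples are left, 6363 and 5693 genes were called, with 84.3% and 78.4% of the 6869 among them. The cause was not tested.

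Other scalings, filters, DESeq2, thinned counts and the 24-library fit moved the count of called genes by less than 1.5 times, to between 6733 and 8258, with 830 to 1480 past 2-fold. Of 137 named genes, 135 kept their sign in every setting. Those that lost a call when 1 library was left out included Hesx1, Elf5, Wnt3a, Zfp521 and Dkk1, those that lost it without both libraries of a line included Rarb, Irx3 and Twist1, and Ankrd1, Ier2, Sesn2 and Utf1 lost it under DESeq2. Without the day 0 library of line 1, Gbx2, Ccn2, Sox7, Crabp1, Dnmt3a and Fasn were among the list genes no longer called. At these depths a gene with 0 counts on a day is limited only to below 0.0626 CPM on day 0 or 0.0497 CPM on day 2 over the 3 libraries. Further named genes share transcript 75-base stretches with other genes' transcripts, such as Mt2 (30.2%), Notum (26.2%) and Hoxa3 (22.5%).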

Other observations

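X-linked genes leaned upwards between the days. Of 537 X-linked genes tested in the wt lines 173 (32.2%) rose and 84 fell, with a median log2 fold change of 0.26, beside 22.1% rising and 22.1% falling among autosomal genes with a median of 0.02. In the het lines 188 of 532 (35.3%) rose and 128 (24.1%) fell, with a median of 0.15. Among autosomal genes in het 27.7% rose and 28.2% fell. The wt and het lines are male and carry 1 X chromosome. The day 0 library of wt line 1 read low on the X chromosome, by a median of 0.132 on the log2 scale against the other 5 lines of that day, and without it (an alternative chosen after seeing the data) 152 of 554 (27.4%) rose and 88 fell, with a median of 0.26. The shares are descriptions, and their difference was not tested. On chromosome 18, 32.5% rose and 16.9% fell in wt, and 37.2% rose and 23.7% fell in het. Without the protocadherin genes, which share reads, 26.0% rose and 18.5% fell in wt. In het 31.3% then rose and 26% fell, beside the 27.7% and 28.2% of het autosomal genes. Without the day 0 library of wt line 1 the wt share rising on chromosome 18 was 27.8%, and 21.0% without the protocadherin genes. In that fit 20.7% of autosomal genes rose and 20.5% fell. The same library read low by medians of 0.13 on chromosome 18 and 0.162 on chromosome 13.

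Genes of ribosomal proteins and their paralogues rose in 33 of 85 cases (22.4% of all tested genes rose) and fell in 5 (21.9%). The genes of the replicative helicase, Mcm2 to Mcm7, fell in 5 of 6 cases, beside 21.9% of all genes. Genes that differed most between lines in their change were structural RNAs that were high in the day 0 library of line 1 (Rmrp, Rpph1 and Gm26917, with ranges over lines of 4.54, 3.53 and 3.12 on the log2 scale), Gm20512 and Gm13061, both of which fell by the test mainly through line 1.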
